A study of Mus musculus with 24 samples.

Results

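The scavenger and efferocytosis receptors described here are a list of 10 named genes (Msr1, Marco, Cd36, Cd163, Stab1, Scarb1, Mertk, Axl, Timd4 and Lyve1), chosen by name from 35770 named genes and followed in bone marrow-derived macrophages (BMDMs). Of the 10, 8 passed a filter on low values and were tested among 13661 genes, while Timd4 and Lyve1 did not. All 10 are protein-coding genes in GENCODE on GRCm39. The class A and B scavenger receptor genes lie at chr8:40034726-40095714 (Msr1), chr1:120402267-120432753 (Marco), chr5:17986432-18094067 (Cd36) and chr5:125353547-125418176 (Scarb1). Stab1 lies at chr14:30860970-30890598, Cd163 at chr6:124281606-124307560 and Lyve1 at chr7:110448585-110462460, and the efferocytosis receptor genes at chr2:128540729-128645080 (Mertk), chr7:25456535-25488329 (Axl) and chr11:46701620-46735177 (Timd4). The macrophages were grown from C57BL/6 mouse bone marrow for 5 days and then 48 h more with M-CSF (20 ng/mL in DMEM with serum), the cytokine that drives macrophage differentiation. They were then given either control media that had been kept without cancer cells or, at 75% of the volume, medium in which LL2 cells, from a Lewis lung carcinoma of the mouse, had grown for 48 h. The LL2 cells were wild-type (WT), lacked KEAP1 (KEAP1 KO) or lacked NRF2 (NRF2 KO). Each of the 4 media was combined with vehicle or with 100 nM CDDO-Me, a synthetic oleanane triterpenoid that activates NRF2, for 24 h, which gave 8 groups of 3 libraries and 24 libraries in all. The macrophages themselves carried no knockout in any group, LL2 RNA was not analysed here, and whether each knockout line was 1 clone is not given in the sources used here. Groups are named medium/treatment, as in WT CM/CDDO-Me, and media/vehicle BMDMs stand for the naïve state.

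Scavenger receptors bind modified lipoproteins, polyanions, microbes and spent serum proteins at the macrophage surface and carry them to lysosomes. Efferocytosis receptors bind phosphatidylserine on dying cells, either directly or through bridging proteins such as Gas6 and protein S, and trigger engulfment without the inflammation that uncleared corpses provoke. In tumors both families are known from tumor-associated macrophages, where CD163, MARCO and MERTK are often used as markers of an immunosuppressive state.

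The promoters of 3 members are shown because these genes had some of the largest CDDO-Me differences below, Stab1 and Cd163 downwards and Marco upwards. Each line gives the 250 bases upstream of the RefSeq start site, taken from the RefSeq promoter table on GRCm38.p6, read 5′ to 3′ along the gene, with the position at which the same letters were found once in GRCm39. Capitals mark the letters GAGGAA, the core bound by PU.1, the factor that sets macrophage identity.
Stab1, chr14:30890599-30890848, minus strand: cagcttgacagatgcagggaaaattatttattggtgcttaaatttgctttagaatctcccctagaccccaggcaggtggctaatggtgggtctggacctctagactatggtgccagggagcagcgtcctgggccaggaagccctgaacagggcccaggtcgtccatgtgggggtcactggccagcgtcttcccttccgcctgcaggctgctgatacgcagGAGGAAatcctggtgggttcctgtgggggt
Cd163, chr6:124281360-124281609, plus strand: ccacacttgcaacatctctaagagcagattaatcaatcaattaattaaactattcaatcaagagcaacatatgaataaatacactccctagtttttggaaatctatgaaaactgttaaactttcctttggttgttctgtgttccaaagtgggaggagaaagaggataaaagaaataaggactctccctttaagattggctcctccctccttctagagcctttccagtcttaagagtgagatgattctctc
Marco, chr1:120432754-120433003, minus strand: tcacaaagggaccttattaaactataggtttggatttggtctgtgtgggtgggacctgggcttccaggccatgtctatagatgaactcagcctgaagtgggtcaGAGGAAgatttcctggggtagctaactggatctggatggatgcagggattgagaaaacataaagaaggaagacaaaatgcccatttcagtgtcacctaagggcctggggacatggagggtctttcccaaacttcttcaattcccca
The table held 7 of the 10 members (Marco, Cd36, Cd163, Stab1, Mertk, Axl and Timd4). The PU.1 core, searched on both strands and chosen after the sequences had been seen, was in 3 of these 7 windows (Marco, Axl and Stab1) and in 23.3% of 32851 mouse promoter windows of the same length. The antioxidant response element core to which NRF2 binds (TGACNNNGC) was in 0 of the 7 windows and in 10.2% of all windows. The STAT6 site (TTC and GAA parted by 4 bases), the core of the ISRE (GAAA and GAAA parted by 2 bases) and the E-box CACGTG were each in 0 of the 7 windows as well, against 5.85%, 2.98% and 6.02% of all windows. A missing match says only that these letters are not in the window. The Cd36 window lies 53173 bases inside the outermost GENCODE start of that gene.

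The deposited values are TPM, transcripts scaled to a fixed total in each library, a level corrected for transcript length, so that levels may be compared between genes. The study states an average sequencing depth, but the depth of each library is unknown. Between 15702 and 18993 named genes had a value above 0 in a library. The replicate 3 libraries of NRF2 KO CM/vehicle and NRF2 KO CM/CDDO-Me stood apart with the fewest genes, 15702 and 16299, while no other library had under 17817. Values without these 2 libraries are therefore given beside most of the NRF2 KO CM results. All 10 macrophage markers on the list averaged above 1 TPM in every group, with Csf1r between 660 and 1599 TPM, and the lymphocyte and epithelial markers summed to at most 1.44 and 9.23 TPM. The fibroblast markers, however, summed to between 366 and 3948 TPM and the endothelial markers to at most 146 TPM. These and other lists are described further below. Each group's replicates carry only numbers in their labels. The study describes them as independent samples, but their relation to animals is not stated, so the p-values measure the spread between these samples. These are bulk libraries, in which fewer cells of a type and less RNA per cell cannot be told apart.

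The members differed widely in level. Over all 24 libraries Cd36 had a median of 947 TPM, Stab1 292 TPM, Msr1 123 TPM, Axl 101 TPM, Scarb1 90.0 TPM and Mertk 47.7 TPM. Cd163 had a median of 3.83 TPM and Marco 0.580 TPM. Timd4, at 0.154 to 1.22 TPM, and Lyve1, listed at 0 in 11 of 24 libraries and at no more than 0.280 TPM in the others, were close to the bottom of the range in these M-CSF-grown cells. The highest group mean exceeded the lowest by 20.6-fold for Cd163, 8.21-fold for Stab1, 2.33-fold for Cd36 and 2.13-fold for Axl, but by 1.32-fold for Scarb1.

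**Figure D1:**
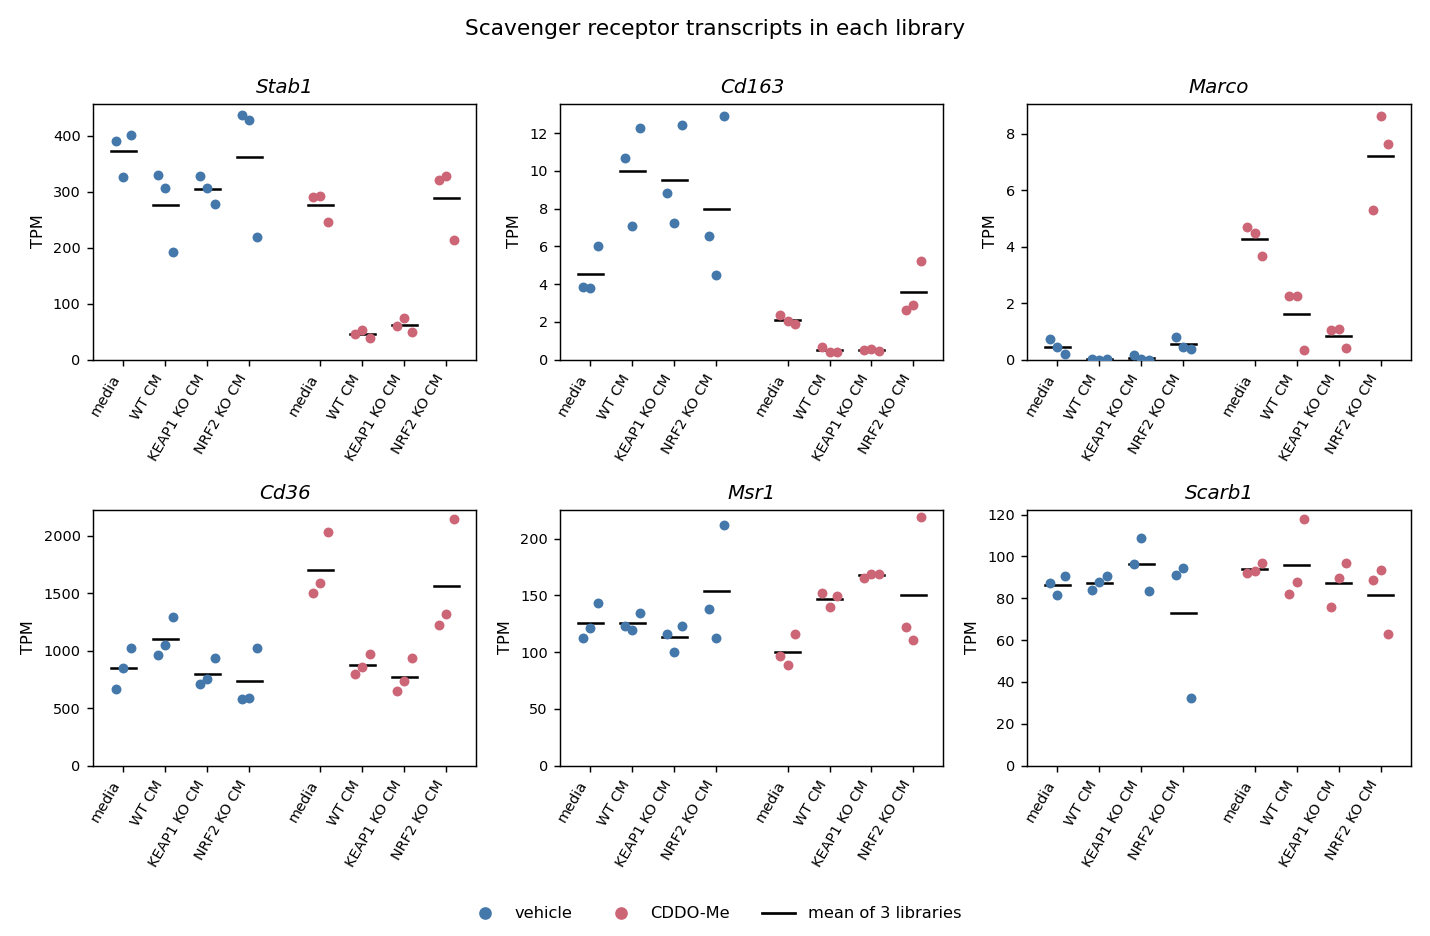
TPM of 6 scavenger receptor genes in each of the 24 libraries (points), with the mean of each group of 3 (line), on linear axes that start at 0, for vehicle and CDDO-Me in the 4 media. Stab1 and Cd163 are lowest in KEAP1 KO CM/CDDO-Me and WT CM/CDDO-Me, and Marco and Cd36 are highest in media/CDDO-Me and NRF2 KO CM/CDDO-Me. The Scarb1 group means differ little, with single libraries apart at 32.4 TPM (NRF2 KO CM/vehicle), 62.8 TPM (NRF2 KO CM/CDDO-Me) and 118 TPM (WT CM/CDDO-Me).

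The first question was how tumor-conditioned media alone altered the receptors. In WT CM/vehicle BMDMs the TAM receptor kinases fell: Mertk, which recognises apoptotic cells through Gas6 and protein S, and Axl, its Gas6-dependent relative. These were 2 of the 8 tested members, both lower, at an adjusted p under 0.05 in limma's test with Benjamini-Hochberg adjustment over all 13661 genes, where 7.34% of all genes passed (4.33% higher and 3.02% lower). Log2 differences here and below are on the log2(scaled TPM + 1) scale, which understates changes of genes near or below 1 TPM.

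Mertk was at 50.5, 49.2 and 51.1 TPM in media/vehicle and at 32.0, 32.8 and 32.5 TPM in WT CM/vehicle. The 2 groups did not overlap and were each tight, and the log2 difference was -0.55 (SE 0.14, 95% confidence interval -0.85 to -0.25, adjusted p = 0.0197). In KEAP1 KO CM/vehicle Mertk was at 36.1, 33.7 and 36.0 TPM, again below every naïve library (log2 difference -0.51, adjusted p = 0.0300), and it was the 1 member to pass there, where 7.96% of all genes passed. In NRF2 KO CM/vehicle Mertk was at 47.9, 45.9 and 59.5 TPM, around the naïve level (0.04, adjusted p = 0.888). Set against NRF2 KO CM, Mertk was lower in WT CM (-0.60, adjusted p = 0.0100) and in KEAP1 KO CM (-0.55, adjusted p = 0.0177). It was the 1 member to pass in each of these 2 comparisons, in which 10.7% and 8.82% of all genes passed. Without the 2 libraries of few genes Mertk passed in both (-0.42, adjusted p = 0.00670, and -0.37, adjusted p = 0.0172), and so did Axl (-0.65, adjusted p = 0.000214, and -0.39, adjusted p = 0.0129), while Cd36 (0.99, adjusted p = 0.00271), Cd163 (0.82, adjusted p = 0.0270) and Stab1 (-0.59, adjusted p = 0.0328) passed in WT CM against NRF2 KO CM. Leaving out KEAP1 KO CM/vehicle replicate 2 or NRF2 KO CM/vehicle replicate 3 alone raised the adjusted p of the second to 0.0812 and 0.0616, and leaving out any 1 of the 6 libraries of KEAP1 KO CM/vehicle and media/vehicle raised that against media/vehicle to between 0.0505 and 0.136. Fitted on the compared groups alone, the differences from NRF2 KO CM did not pass (adjusted p = 0.224 and 0.346).

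Axl was at 98.6, 101 and 104 TPM in media/vehicle and at 57.5, 63.2 and 55.6 TPM in WT CM/vehicle, without overlap (log2 difference -0.71, SE 0.19, 95% confidence interval -1.12 to -0.31, adjusted p = 0.0289). In KEAP1 KO CM/vehicle it was at 73.3, 82.4 and 66.1 TPM, between those groups, and the difference from media/vehicle did not pass (-0.46, adjusted p = 0.183). In NRF2 KO CM/vehicle it was at 92.3, 106 and 42.0 TPM, where the low value is the library with the fewest genes (-0.41 against media/vehicle, adjusted p = 0.406). Both calls in WT CM lay near the threshold and were lost when single libraries were left out, although the log2 differences changed little. In the fits that lost the call in this way, Axl was at -0.68 to -0.75 and Mertk at -0.53 to -0.55. Leaving out any 1 of the 6 compared libraries raised the adjusted p of Axl in WT CM to between 0.0638 and 0.0944, and no scaling or no filter raised it to 0.0602 and 0.0513. Leaving out media/vehicle replicate 1 or 3 or WT CM/vehicle replicate 1 or 2 raised that of Mertk to between 0.0674 and 0.0730.

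The scavenger receptors did not pass in the conditioned media with vehicle. Cd163, the receptor for hemoglobin bound to haptoglobin, was at 3.84, 3.82 and 6.01 TPM in media/vehicle and at 10.7, 7.07 and 12.3 TPM in WT CM/vehicle. The WT CM group lay wholly above the naïve group, with a mean 2.20-fold as high, but the log2 difference of 1.03 had an adjusted p of 0.0614. In this comparison same-numbered libraries deviated together, and with the replicate number as a block Cd163 passed (adjusted p = 0.0100), as did Cd36 (0.45, adjusted p = 0.0391). With the block 4 members were called instead of 2, while the genes called rose from 1003 to 1734 of 13661. Cd163 in KEAP1 KO CM/vehicle, at 8.85, 7.26 and 12.4 TPM, was likewise above every naïve library (0.90, adjusted p = 0.105). Without the 2 libraries of few genes Cd163 passed in both (adjusted p = 0.00239 and 0.00543).

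Cd36, a class B scavenger receptor that takes up oxidized LDL and long-chain fatty acids, was at 666, 853 and 1024 TPM in media/vehicle and at 959, 1047 and 1294 TPM in WT CM/vehicle, with overlap (0.45, adjusted p = 0.477). Stab1, which encodes stabilin 1, a multidomain clearance receptor for SPARC and acetylated LDL that also binds phosphatidylserine, was at 390, 327 and 402 TPM in media/vehicle and at 330, 306 and 192 TPM in WT CM/vehicle (-0.40, adjusted p = 0.317), a difference that was -0.18 without WT CM/vehicle replicate 3. Marco, a class A receptor for bacteria and particles, was at 0.712, 0.436 and 0.206 TPM in media/vehicle. In WT CM/vehicle it was listed at 0.0182, 0 and 0.0181 TPM and in KEAP1 KO CM/vehicle at 0.171, 0.0148 and 0 TPM, below every naïve library, although the log2 differences of -0.49 and -0.43 did not pass (adjusted p = 0.401 and 0.473) at a level so far under the pseudocount of 1.

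NRF2 KO CM called 0 members against media/vehicle, with 0.00732% of all genes passing. At an unadjusted p under 0.05 there was 1 member (Axl) and 1659 genes. The members' log2 differences ran from -0.41 for Axl to 0.64 for Cd163, but both ends rested on NRF2 KO CM/vehicle replicate 3. Without the 2 libraries of few genes Axl was at -0.08 and Cd163 at 0.20, Mertk turned to -0.14 and Cd36 was the lowest at -0.55 (adjusted p = 0.733). KEAP1 KO CM against WT CM with vehicle called 0 members and 0% of all genes, with 0 members and 341 genes at an unadjusted p under 0.05. The largest differences among the members there were -0.53 for Cd36 (95% confidence interval -1.13 to 0.06) and 0.25 for Axl (-0.16 to 0.65), intervals that leave room for differences of this size. With library weights, by which libraries that vary more count for less, these 2 passed (adjusted p = 0.0116 for Cd36 and 0.0131 for Axl), with 1081 genes called in all.

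**Figure D2:**
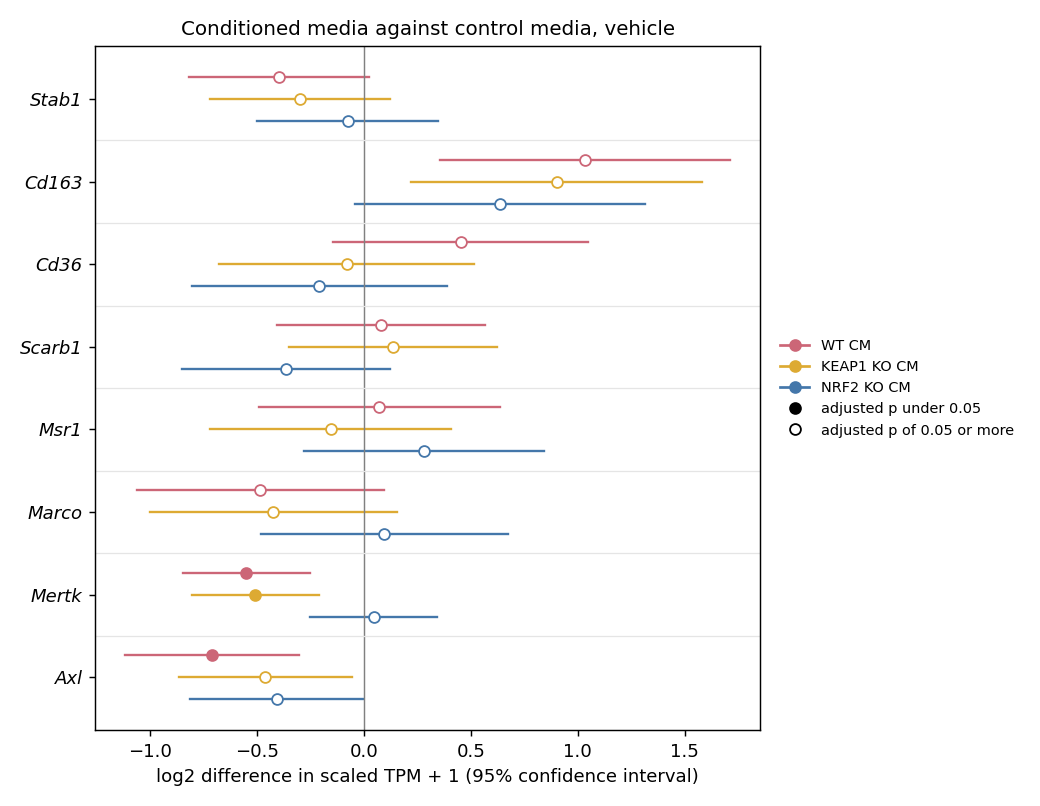
Log2 difference in scaled TPM + 1 of the 8 tested members between each conditioned medium and control media, all with vehicle; bars are 95% confidence intervals, and filled points had an adjusted p under 0.05. Mertk (-0.55 and -0.51) and Axl (-0.71 in WT CM) are the filled points, and the NRF2 KO CM intervals include 0 apart from that of Axl, which ends just below it.

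The second question was what CDDO-Me changed, and whether this depended on the medium. In WT CM, CDDO-Me lowered Stab1 and Cd163 and raised Mertk, Axl and Marco. These were 5 of the 8 tested members (3 higher and 2 lower), where 27.8% of all genes passed, 13.9% higher and 13.9% lower. In KEAP1 KO CM the same 5 members passed in the same directions and Msr1 also rose, 6 of 8, where 28.8% of all genes passed. In control media 2 members rose, Marco and Cd36, where 6.01% of all genes passed, and in NRF2 KO CM the same 2 rose, where 9.77% passed. Marco is in all 4 of these counts, but it exceeded 1 TPM only in libraries with CDDO-Me. It was tested only through those libraries, so its calls cannot be set against the share of all genes. The 4 comparisons use different libraries and share none.

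Stab1 showed the clearest change. In WT CM it went from 330, 306 and 192 TPM with vehicle to 45.0, 52.5 and 38.9 TPM with CDDO-Me, and in KEAP1 KO CM from 329, 307 and 279 TPM to 60.5, 74.0 and 49.5 TPM. The mean was 6.08-fold higher with vehicle in WT CM and 4.97-fold higher in KEAP1 KO CM, with no overlap in either medium. The log2 differences were -2.44 (SE 0.20, 95% confidence interval -2.86 to -2.02, adjusted p = 1.16e-08) and -2.14 (SE 0.20, adjusted p = 7.59e-08). In control media CDDO-Me left Stab1 at 291, 293 and 246 TPM, below the naïve libraries (-0.42, adjusted p = 0.308). For NRF2 KO CM the values were 438, 428 and 219 TPM with vehicle and 321, 329 and 214 TPM with CDDO-Me, which overlap (-0.28, adjusted p = 0.497). The lowest value of each group was its library of few genes, and without these 2 the groups did not overlap and the difference was -0.38 (adjusted p = 0.284). Leaving out NRF2 KO CM/vehicle replicate 1 or 3 gave -0.13 and -0.51, and with library weights it passed (-0.42, adjusted p = 0.0242).

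Cd163 moved the same way at a much lower level. In WT CM it went from 10.7, 7.07 and 12.3 TPM to 0.681, 0.376 and 0.400 TPM, and in KEAP1 KO CM from 8.85, 7.26 and 12.4 TPM to 0.510, 0.559 and 0.440 TPM. No CDDO-Me library in these media reached 1 TPM, and the vehicle means were 20.6-fold and 18.9-fold higher. The log2 differences were -2.83 (SE 0.32, adjusted p = 1.04e-06) and -2.68 (SE 0.32, adjusted p = 2.07e-06). In control media Cd163 with CDDO-Me, at 2.37, 2.03 and 1.91 TPM, also lay below every vehicle library, with a log2 difference of -0.81 that did not pass (adjusted p = 0.186). It passed in 4 of 16 alternatives. With the replicate number as a block the adjusted p was 0.0468, with 3 members called instead of 2 and 1466 genes instead of 821. The adjusted p was 0.00600 with library weights, 0.0318 in the compared groups alone and 0.0161 without the 2 NRF2 KO CM libraries of few genes. In NRF2 KO CM Cd163 was at 6.57, 4.51 and 12.9 TPM with vehicle and at 2.64, 2.89 and 5.24 TPM with CDDO-Me (-0.90, adjusted p = 0.0953, and 0.0209 with the block). This value depended on single libraries, since it was -0.45 without NRF2 KO CM/vehicle replicate 3, -1.25 without NRF2 KO CM/vehicle replicate 2 and -0.75 (adjusted p = 0.0888) without both libraries of few genes.

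Marco was the 1 member that rose with CDDO-Me in all 4 media. In control media it went from 0.712, 0.436 and 0.206 TPM to 4.69, 4.48 and 3.65 TPM (log2 difference 1.85, SE 0.28, adjusted p = 0.000208), and in NRF2 KO CM from 0.795, 0.447 and 0.374 TPM to 5.30, 8.63 and 7.65 TPM (2.39, SE 0.28, adjusted p = 7.61e-06). Without the 2 libraries of few genes the latter was 2.25 (adjusted p = 0.000311). The means rose 9.47-fold and 13.4-fold, with wide gaps between the groups. In WT CM it rose from the near-zero values above to 2.25, 2.25 and 0.325 TPM (1.31, SE 0.28, adjusted p = 0.000989), and in KEAP1 KO CM to 1.04, 1.08 and 0.403 TPM (0.82, SE 0.28, adjusted p = 0.0293). The replicate 3 library was the lowest of each of these 2 groups but still lay above all vehicle libraries of its medium. The order of the CDDO-Me groups ran from NRF2 KO CM through control media to WT CM and KEAP1 KO CM, and of these neighbours only the last pair overlapped. Leaving out KEAP1 KO CM/vehicle replicate 2 or 3 or KEAP1 KO CM/CDDO-Me replicate 1 or 2 raised the adjusted p in KEAP1 KO CM to between 0.0791 and 0.105, and a pseudocount of 5 raised it to 0.148. Marco exceeded 1 TPM in 10 of 24 libraries, so it passed the filter through the CDDO-Me groups.

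Cd36 rose with CDDO-Me in control media and in NRF2 KO CM. In control media it went from 666, 853 and 1024 TPM to 1500, 1586 and 2031 TPM, 2.01-fold in the means and without overlap (log2 difference 1.02, SE 0.29, adjusted p = 0.0368). In NRF2 KO CM it went from 584, 591 and 1024 TPM to 1223, 1319 and 2149 TPM, 2.13-fold (1.10, SE 0.29, adjusted p = 0.0167). In each of the 8 groups of the series the replicate 3 library had the highest Cd36 and the replicate 1 library the lowest. In WT CM, with CDDO-Me at 798, 854 and 975 TPM, the difference was -0.21 (95% confidence interval -0.81 to 0.39, adjusted p = 0.677), and in KEAP1 KO CM, at 649, 738 and 936 TPM with CDDO-Me against 708, 758 and 933 TPM, it was 0.12 (-0.48 to 0.72, adjusted p = 0.823). The call in control media was lost (adjusted p 0.0608 to 0.186) without media/vehicle replicate 1 or 2 or any 1 of the media/CDDO-Me replicates, and with no filter (0.0745). The call in NRF2 KO CM was lost (0.0680 to 0.0768) without NRF2 KO CM/vehicle replicate 1 or 2 or NRF2 KO CM/CDDO-Me replicate 3 and in the compared groups alone (0.378), and it held without the 2 libraries of few genes (1.14, adjusted p = 0.00215).

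Msr1, which encodes the class A scavenger receptor SR-A1, stayed between 88.5 and 219 TPM. In KEAP1 KO CM it went from 116, 99.8 and 123 TPM with vehicle to 166, 169 and 169 TPM with CDDO-Me, 1.49-fold in the means and without overlap (log2 difference 0.74, SE 0.27, adjusted p = 0.0436). Leaving out any 1 of these 6 libraries raised the adjusted p to between 0.0515 and 0.159, and no filter raised it to 0.0824. In WT CM the CDDO-Me libraries, at 152, 139 and 149 TPM, were also above the vehicle libraries at 123, 119 and 134 TPM (0.34, adjusted p = 0.423), and this passed without the 2 NRF2 KO CM libraries of few genes (0.38, adjusted p = 0.0235). In control media CDDO-Me gave 96.5, 88.5 and 116 TPM against 112, 121 and 143 TPM (-0.32, adjusted p = 0.731). The 2 highest values of Msr1, 212 and 219 TPM, were those of the 2 NRF2 KO CM libraries of few genes, with which the CDDO-Me difference in that medium was -0.05 and without which it was -0.07.

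Scarb1, the class B receptor for high-density lipoprotein, did not pass in any of the 16 comparisons, although WT CM/CDDO-Me against media/vehicle did without the 2 NRF2 KO CM libraries of few genes (0.34, adjusted p = 0.0254). Its group means ran from 72.7 ± 34.9 TPM (SD, n = 3) in NRF2 KO CM/vehicle to 96.1 ± 12.7 TPM (SD, n = 3) in KEAP1 KO CM/vehicle, and every pair of neighbours in that order overlapped. The CDDO-Me differences were 0.13 (95% confidence interval -0.36 to 0.61) in control media, 0.23 (-0.26 to 0.71) in WT CM, 0.03 (-0.45 to 0.52) in KEAP1 KO CM and 0.30 (-0.19 to 0.79) in NRF2 KO CM. The sign in KEAP1 KO CM turned without scaling between libraries. The NRF2 KO CM/vehicle libraries held 91.3, 94.4 and 32.4 TPM, the last of which is the library with the fewest genes, and without it the sign in that medium turned (-0.11), while without both libraries of few genes the difference was 0.0062.

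**Figure D3:**
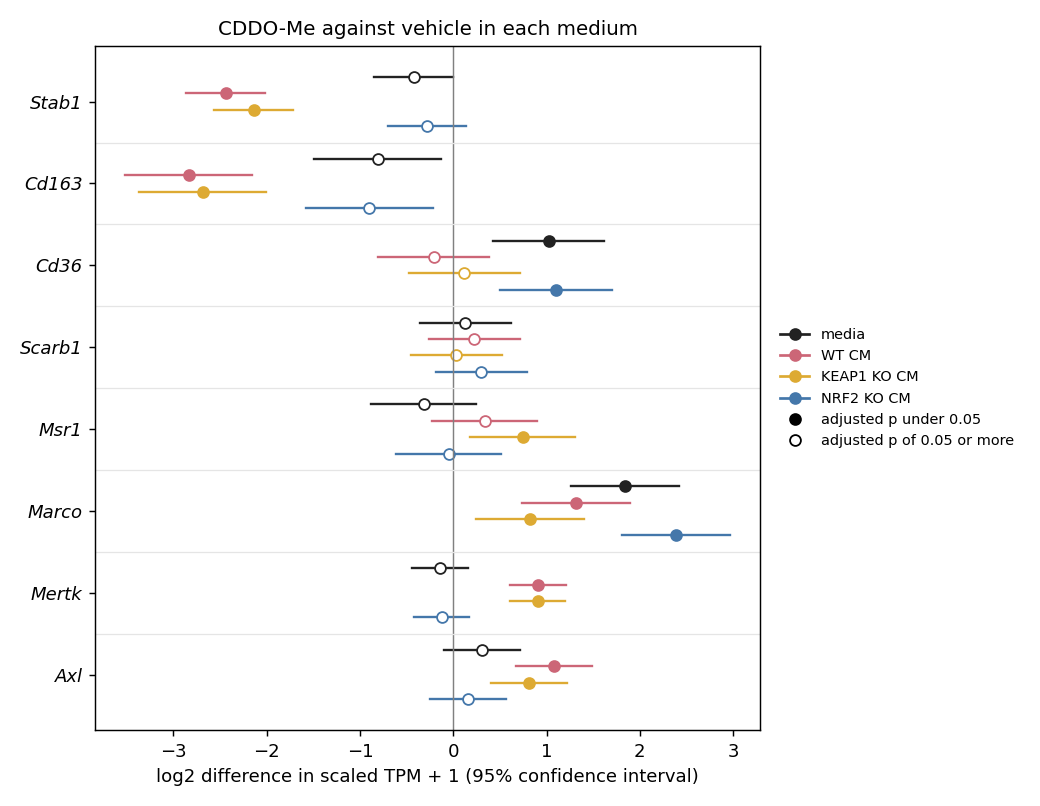
Log2 difference in scaled TPM + 1 between CDDO-Me and vehicle for the 8 tested members in each of the 4 media; bars are 95% confidence intervals, and filled points had an adjusted p under 0.05. WT CM and KEAP1 KO CM lie together for Stab1 (-2.44 and -2.14), Cd163 (-2.83 and -2.68) and Mertk (0.91 and 0.91), apart from control media and NRF2 KO CM.

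The efferocytosis kinases moved against Stab1 and Cd163. Mertk rose in WT CM from 32.0, 32.8 and 32.5 TPM with vehicle to 62.0, 56.9 and 52.9 TPM with CDDO-Me (log2 difference 0.91, SE 0.14, adjusted p = 4.52e-05). In KEAP1 KO CM it rose from 36.1, 33.7 and 36.0 TPM to 67.8, 59.0 and 52.3 TPM (0.91, SE 0.14, adjusted p = 4.43e-05). Every CDDO-Me library in these 2 media lay above every naïve library as well. In control media CDDO-Me gave 47.4, 43.3 and 45.4 TPM, just below the naïve libraries (-0.14, 95% confidence interval -0.44 to 0.16, adjusted p = 0.808). With NRF2 KO CM it gave 46.7, 43.4 and 49.3 TPM (-0.12, adjusted p = 0.709, and -0.03 without the 2 libraries of few genes).

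Axl rose with CDDO-Me to 115, 133 and 102 TPM in WT CM (1.08, SE 0.19, adjusted p = 0.000210) and to 107, 137 and 105 TPM in KEAP1 KO CM (0.81, SE 0.19, adjusted p = 0.00283). Neither group overlapped its vehicle libraries. In control media all 3 CDDO-Me libraries, at 121, 131 and 123 TPM, were above the naïve libraries, with a log2 difference of 0.31 (95% confidence interval -0.10 to 0.71, adjusted p = 0.536). In NRF2 KO CM the CDDO-Me libraries were at 96.1, 100 and 59.3 TPM (0.16, adjusted p = 0.727), and the sign turned without NRF2 KO CM/vehicle replicate 3, while without both libraries of few genes the difference was 0.02.

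**Figure D4:**
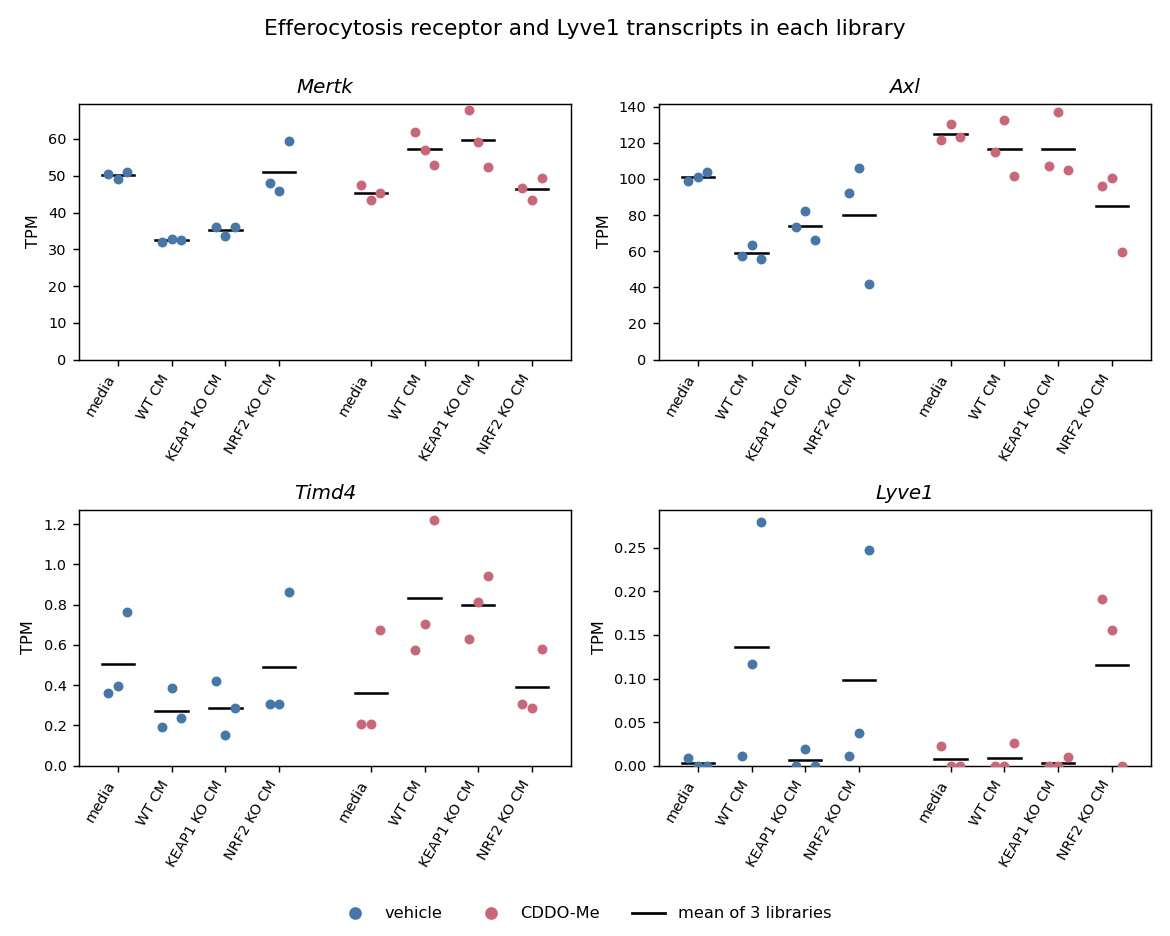
TPM of Mertk, Axl, Timd4 and Lyve1 in each of the 24 libraries (points) with the mean of each group of 3 (line), on linear axes that start at 0. Mertk and Axl are lowest in WT CM/vehicle, around 32 and 59 TPM, and high in KEAP1 KO CM/CDDO-Me and WT CM/CDDO-Me, while Timd4 hardly exceeds 1 TPM and Lyve1 stays under 0.3 TPM.

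Timd4 encodes TIM-4, a phosphatidylserine receptor of resident macrophages, and Lyve1 encodes a hyaluronan receptor of lymphatic vessels and of some perivascular macrophages. Timd4 was at 0.190, 0.383 and 0.236 TPM in WT CM/vehicle and at 0.574, 0.705 and 1.22 TPM in WT CM/CDDO-Me, with 0.419, 0.154 and 0.288 TPM against 0.630, 0.815 and 0.944 TPM in KEAP1 KO CM. The CDDO-Me libraries lay above the vehicle libraries in both media. Without a filter on low values, the log2 differences of 0.57 and 0.54 had adjusted p-values of 0.0382 and 0.0484. In control media and NRF2 KO CM they were -0.14 and -0.09 (adjusted p = 0.988 and 0.973). The CDDO-Me effects in WT CM and KEAP1 KO CM did not differ from that in control media (adjusted p = 0.116 and 0.136). Timd4 exceeded 1 TPM in only 1 library, so these values lie near the floor. Lyve1 was highest in single libraries of WT CM/vehicle (0.280 TPM) and NRF2 KO CM/vehicle (0.248 TPM), levels too low for a comparison.

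Because the media differed in this way, the difference between CDDO-Me effects was tested itself, as the change in WT CM minus the change in control media. It passed for 4 of the 8 members, where 15% of all genes passed. The fall was larger in WT CM for Stab1 (-2.02, SE 0.29, adjusted p = 3.25e-05) and for Cd163 (-2.02, SE 0.46, adjusted p = 0.00404). The change of Cd36 was lower in WT CM (-1.23, SE 0.40, adjusted p = 0.0448), and that of Mertk was higher (1.05, SE 0.20, adjusted p = 0.000862). For KEAP1 KO CM against control media, a test that shares its control media libraries with that of WT CM, 3 of 8 passed, where 14.7% of all genes passed: Stab1 (-1.72, adjusted p = 0.000221), Cd163 (-1.87, adjusted p = 0.00729) and Mertk (1.05, adjusted p = 0.000895). Axl (0.77 and 0.51), Msr1 (0.65 and 1.06) and Marco (-0.53 and -1.02) did not pass in either, with adjusted p-values of 0.0674 and 0.275, 0.326 and 0.0705, and 0.475 and 0.0929. Without the 2 libraries of few genes, which belong to neither comparison but share the estimate of spread, Axl (0.80, adjusted p = 7.27e-05, and 0.52, adjusted p = 0.00376) and Msr1 (0.68, adjusted p = 0.00882, and 1.07, adjusted p = 0.000230) passed in both and Cd36 passed in KEAP1 KO CM (-0.89, adjusted p = 0.0129).

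The CDDO-Me effect in NRF2 KO CM against that in control media passed for 0 members and 0% of all genes, with 0 members and 374 genes at an unadjusted p under 0.05. The CDDO-Me effect in KEAP1 KO CM against that in WT CM likewise passed for 0 members and 0% of all genes, with 0 members and 225 genes at an unadjusted p under 0.05. The largest of the latter differences among the members were -0.49 for Marco (95% confidence interval -1.31 to 0.33) and 0.41 for Msr1 (-0.39 to 1.20). The call for Cd36 in WT CM was fragile, and leaving out any 1 of the 12 libraries other than media/vehicle replicate 3 raised its adjusted p to between 0.0518 and 0.124, and no filter raised it to 0.0904.

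Against the naïve state, WT CM/CDDO-Me differed in 3 of 8 members, where 26.8% of all genes passed. Stab1 (-2.84, adjusted p = 1.37e-09) and Cd163 (-1.80, adjusted p = 0.000242) were lower. Marco, which was tested only through its libraries with CDDO-Me, was higher (0.83, adjusted p = 0.0309). KEAP1 KO CM/CDDO-Me also differed in 3, where 26% of all genes passed, with Stab1 (-2.44, adjusted p = 1.30e-08) and Cd163 (-1.78, adjusted p = 0.000275) lower and Mertk higher (0.40, adjusted p = 0.0448). Mertk in WT CM/CDDO-Me, at 0.36 above the naïve state, had an adjusted p of 0.0713, and Axl stood 0.35 above it in KEAP1 KO CM/CDDO-Me and 0.37 in WT CM/CDDO-Me (adjusted p = 0.214 and 0.184). Msr1 in KEAP1 KO CM/CDDO-Me (0.59, adjusted p = 0.126) passed with the replicate number as a block (adjusted p = 0.0234). The call for Marco was lost (adjusted p 0.0748 to 0.164) without media/vehicle replicate 2 or 3 or WT CM/CDDO-Me replicate 1 or 2, and also with a pseudocount of 0.1 (0.0530) or no filter (0.0518). The call for Mertk was lost (0.0747 to 0.215) without any 1 media/vehicle replicate or KEAP1 KO CM/CDDO-Me replicate 1, and also with no scaling (0.0902), no filter (0.0655) or no trend (0.0525). These comparisons share media/vehicle libraries with those of the conditioned media above.

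Markers of other cells moved with some of these results, and their part in them was not tested. The sum of 12 fibroblast markers was 422 to 1125 TPM in WT CM/CDDO-Me against 1022 to 2178 TPM in WT CM/vehicle, and 366 to 1514 TPM against 1392 to 2726 TPM in KEAP1 KO CM, the media in which Stab1 and Cd163 fell. In media/vehicle it was 1453 to 2674 TPM, and 11 or 12 of the 12 markers averaged above 1 TPM in every group. The sum of 10 endothelial markers, among which Vwf was highest, was 44.8 to 79.7 TPM against 94.4 to 129.8 TPM in WT CM and 40.1 to 69.5 TPM against 82.3 to 125.3 TPM in KEAP1 KO CM. The lymphatic marker Prox1 did not exceed 0.198 TPM. The sum of 5 adipocyte markers fell from 211 to 294 TPM to 12.7 to 17.7 TPM in WT CM, nearly all of it Fabp4, which macrophages also express, while Lep was listed at 0 in 23 libraries. The sum of 7 dendritic cell markers was 100.3 to 126.9 TPM in WT CM/CDDO-Me and 4.23 to 5.70 TPM in WT CM/vehicle, mostly Clec9a, with Flt3 at no more than 0.239 TPM. The sum of 8 neutrophil markers was 33.5 to 60.2 TPM against 11.7 to 38.5 TPM in WT CM and 65.7 to 76.2 TPM against 16.6 to 25.8 TPM in KEAP1 KO CM, mostly S100a8, with Ly6g listed at 0 in 19 libraries. The neutrophil sum also rose in control media (32.8 to 52.0 against 15.5 to 28.0 TPM). In NRF2 KO CM it rose as well (34.7 to 65.4 against 14.4 to 31.4 TPM). The adipocyte sum fell from 258 to 464 TPM to 195 to 254 TPM in control media. In NRF2 KO CM it fell from 256 to 363 TPM to 142 to 175 TPM. The fibroblast sums overlapped between CDDO-Me and vehicle in every medium, WT CM and KEAP1 KO CM included. The endothelial and dendritic cell sums overlapped in control media and in NRF2 KO CM.

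Genes that act with the receptors were followed on 6 lists. In WT CM with CDDO-Me, 7 of 11 tested bridging molecules passed, 2 higher and 5 lower, where 27.8% of all genes passed, 13.9% in each direction. Among those that fell was Gas6, the ligand of MERTK and AXL, at 97.0 ± 15.7 TPM (SD, n = 3) against 366 ± 64.6 TPM with vehicle (log2 difference -1.79, adjusted p = 1.65e-06). Anxa1, which coats apoptotic cells, fell by 2.10 on the log2 scale (adjusted p = 1.77e-10), and Lgals3, which encodes galectin 3, fell by 1.14. Pros1, which encodes protein S, the other TAM ligand, rose (109 ± 19.0 against 65.6 ± 7.32 TPM, SD, n = 3, log2 difference 0.83, adjusted p = 7.48e-05), as did C1qb, a subunit of complement C1q (0.42, adjusted p = 0.0333). With vehicle, 0 of 11 passed in WT CM against control media, where 7.34% of all genes passed. The median over the list was -0.04 with CDDO-Me in WT CM, against -0.03 over all genes tested.

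Of 22 other scavenger and apoptotic cell receptors tested, 7 rose and 5 fell with CDDO-Me in WT CM (median -0.16), against 27.8% of all genes in either direction. Itgb3, the beta chain of a vitronectin receptor that binds MFG-E8, fell by 3.69 (2.59 ± 0.442 against 48.1 ± 7.35 TPM, SD, n = 3, adjusted p = 1.86e-10), after being 1.73 higher in WT CM/vehicle than in media/vehicle (14.4 ± 1.18 TPM). Cd300lb, a phosphatidylserine-binding CD300 family member, and Cd68, the lysosomal scavenger receptor used as a macrophage marker, fell by 1.54 and 1.43. Havcr2, which encodes TIM-3, rose by 2.24 and Cxcl16, the membrane-bound chemokine that binds oxidized LDL, by 1.82, and both had been lower in WT CM/vehicle than in media/vehicle (-1.12 and -1.13). Scarb2, which carries glucocerebrosidase to lysosomes, rose by 0.49. In WT CM/vehicle against media/vehicle 3 rose and 3 fell (median -0.32, against 0.01 over all genes tested, of which 7.34% passed), with Cd300lb (0.66) and Olr1, the lectin-like receptor for oxidized LDL (0.88, 0.885 against 0.0179 TPM in the means), higher and Lrp1, the receptor that pairs with calreticulin, lower (-0.92). WT CM/vehicle is one side of both of these comparisons.

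Of 18 genes of the engulfment machinery, 3 rose and 4 fell with CDDO-Me in WT CM (median -0.01), where 27.8% of all genes passed. Gulp1, an adaptor of engulfment receptors, fell by 1.59, Arhgap12, a Rac GTPase-activating protein, by 1.28, and Trio, a guanine nucleotide exchange factor, by 0.56. Abca7, a lipid transporter linked to engulfment (0.90), Rhog (0.65) and Vav1, an exchange factor for Rac (0.63), rose. With vehicle, Arhgap12 was higher (1.00) and Vav1 lower (-0.55) in WT CM than in control media, the 2 that passed, against 7.34% of all genes.

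Of 18 genes of corpse digestion and lipid export, 4 rose and 5 fell with CDDO-Me in WT CM (median 0.20), where 27.8% of all genes passed. Ctsd, which encodes the lysosomal protease cathepsin D, fell by 1.81 (2481 ± 106 against 9400 ± 868 TPM, SD, n = 3), and Dnase2a, the nuclease that degrades the DNA of engulfed cells, by 1.09. The sterol exporters diverged, since Abca1 fell by 0.51 and Abcg1 rose by 0.81. Slc2a1, the glucose transporter GLUT1 (1.04), and Mcoln1, a lysosomal calcium channel (0.54), also rose. With vehicle, Abca1 (-0.99) and Lipa, the lysosomal acid lipase (-0.58), were lower in WT CM than in control media, the 2 that passed, against 7.34% of all genes.

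Of 16 transcription factors tied to these receptors, 6 rose and 6 fell with CDDO-Me in WT CM (median -0.12), against 27.8% of all genes in either direction. Pparg, which is known to drive Cd36, fell by 1.78 (22.8 ± 2.42 against 87.0 ± 4.58 TPM, SD, n = 3, adjusted p = 4.39e-10). Klf4, a factor of alternatively activated macrophages, fell by 1.66, having been 1.86 higher in WT CM/vehicle than in media/vehicle. Irf8 rose by 2.34 (471 ± 24.9 against 99.7 ± 9.90 TPM, SD, n = 3), Nr4a1 by 1.23 and Ppard by 0.73. Of 11 genes of receptor shedding and the do not eat me pathway, 5 rose and 2 fell (median 0.53), against the same background. Ptpn6, the phosphatase SHP-1 that acts below SIRPα, rose by 1.97 (547 ± 101 against 148 ± 13.2 TPM, SD, n = 3), Rhbdf2, a partner of the sheddase ADAM17, by 0.67 and Cd47 by 0.53, while Sirpa fell by 0.49 and Cd24a by 0.94. With vehicle, Adam17 (-0.52) and Ptpn6 (-0.58) were lower in WT CM than in control media.

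**Figure D5:**
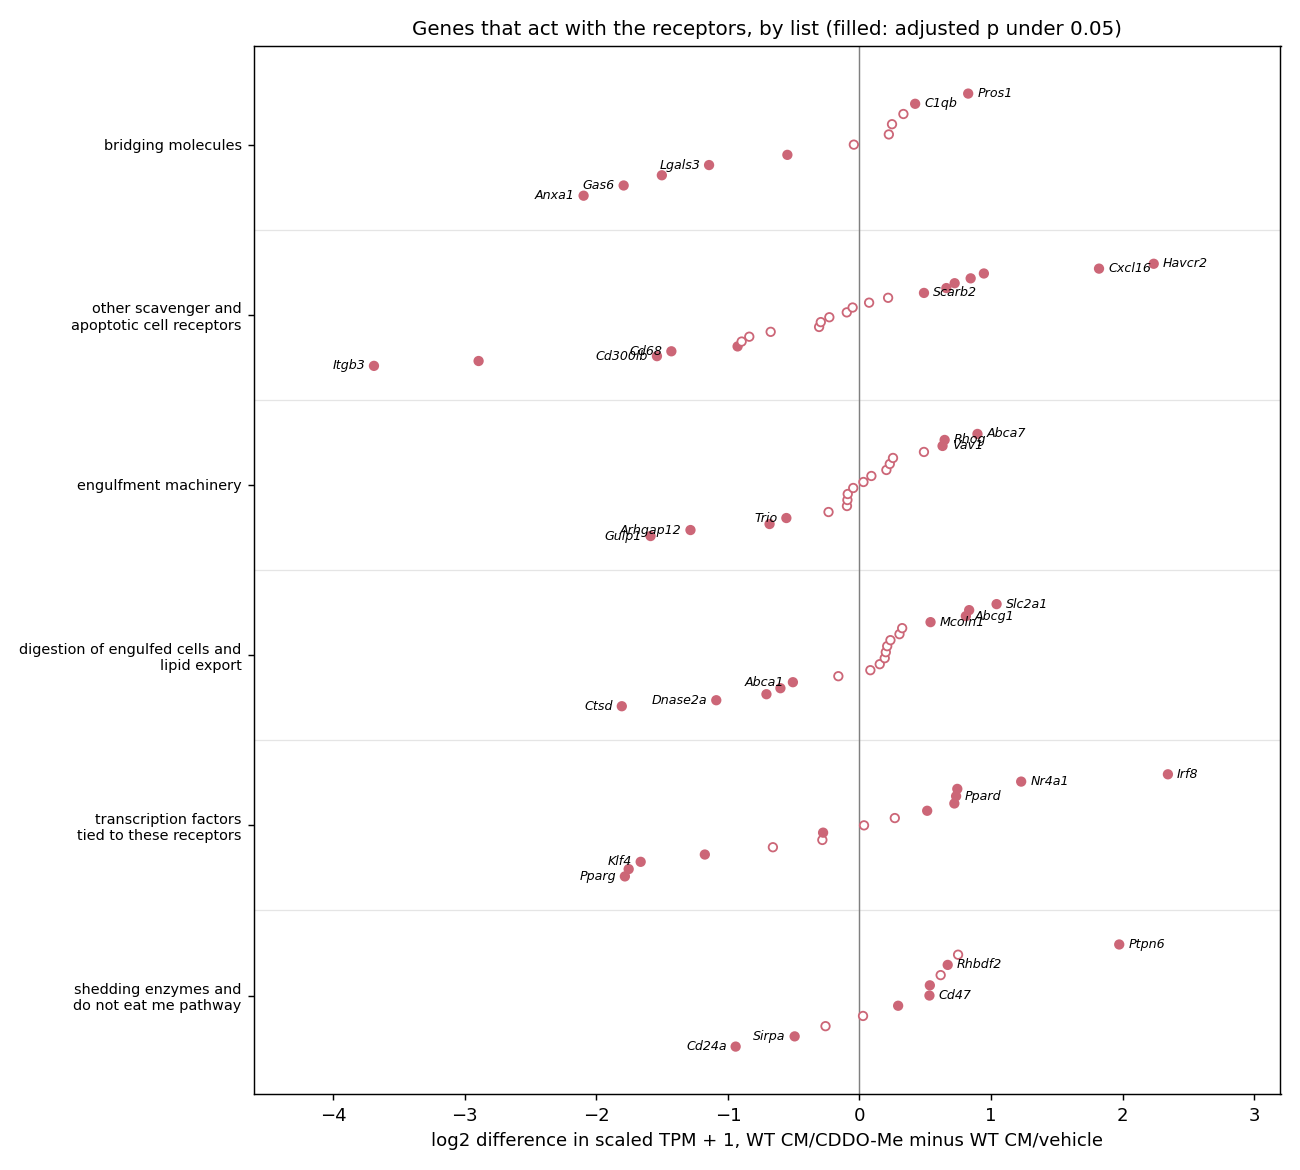
Log2 difference in scaled TPM + 1 between CDDO-Me and vehicle in WT CM for the tested genes of the 6 lists, 1 point a gene and 1 transcription factor not plotted, ordered within each list; filled points had an adjusted p under 0.05 and the genes described in the text are labelled. Each list holds filled points on both sides of 0, from Itgb3 at -3.69 to Irf8 at 2.34.

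In the other media the counts are given beside the share of all genes that passed. With CDDO-Me in KEAP1 KO CM, where 28.8% of all genes passed, 6 of 11 bridging molecules passed, 11 of 22 other receptors, 9 of 18 engulfment genes, 7 of 18 digestion genes, 11 of 16 transcription factors and 7 of 11 shedding and do not eat me genes. In control media, where 6.01% of all genes passed, the same lists had 1, 2, 2, 3, 2 and 1 called genes, and in NRF2 KO CM, where 9.77% passed, 1, 4, 2, 2, 5 and 1. In the test of the difference between the WT CM and control media effects 4, 7, 3, 1, 4 and 3 genes passed, where 15% of all genes did, and for KEAP1 KO CM against control media 3, 7, 5, 2, 5 and 2, where 14.7% did. For NRF2 KO CM against control media with vehicle 0 passed in every list, where 0.00732% of all genes passed.

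The genes whose pattern was most like that of each member, by Pearson r of log2 scaled TPM over the 24 libraries, are given as a description, since the libraries fall into groups and share their scaling. For Stab1 they were Gas6 (r = 0.983), Fabp4 (0.971) and Lhfpl2 (0.964), and for Cd163 Cd300ld3 (0.978), Cd300ld (0.964) and Or10ab4 (0.963). Mertk lay closest to Cxcl16 (0.938), Tifa (0.934) and Cttnbp2nl (0.933), and Axl to Zdhhc1 (0.915), Lmtk2 (0.914) and Adck5 (0.896). Marco lay closest to Ppfibp2 (0.944), Tubgcp4 (0.925) and Cat (0.922), the last of which encodes catalase. Cd36 had the weakest best match, Ctps2 (0.881), followed by Ppp3r1 (0.866) and Kdm7a (0.863). For Msr1 they were Fcer1g (0.934), Ticam2 (0.928) and Tpm3 (0.922), and for Scarb1 Ehmt2 (0.933), Riox1 (0.927) and Znhit2 (0.921). Among the members themselves, Stab1 and Cd163 had an r of 0.748, Mertk and Axl 0.512, and Cd163 and Axl -0.904, while Stab1 and Cd36 had -0.01.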

How the data were processed

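The authors sequenced poly-A RNA of the BMDMs, pseudo-aligned the reads to GRCm39 cDNA with Kallisto and deposited 1 table of TPM, unfiltered, 1 column per library; each column sums to the same total, as TPM does, although the table is named for counts, so no count model was used. A line without a gene name (0.0199 to 0.0635% of TPM) was left out. Here TPM was scaled by TMM factors, and log2(scaled TPM + 1) of genes above 1 TPM in at least 3 libraries was fitted in limma 3.58.1 (R 4.3.3) with 8 group means, a mean-variance trend and 16 residual degrees of freedom, with Benjamini-Hochberg adjustment over 13661 genes and a threshold of 0.05. The fit was tested on simulated data. An exact permutation test of 3 against 3 libraries cannot give a p below 0.1 and was not used. The study also used a filter on low read counts, TMM and limma. It states no filter threshold, and here the filter and TMM were applied to TPM.

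All 10 members are named. From the 6 lists, up to 3 higher and 3 lower genes with the smallest adjusted p in 2 comparisons (WT CM against media with vehicle, CDDO-Me against vehicle in WT CM) are named, and for each tested member the 3 genes of highest r; 1 gene that this rule names and 1 motif searched are not reported here. The members and lists were chosen with earlier results of these data known.

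Same-numbered libraries have no stated common origin. Their deviations correlated above 0.1 in every pair of 5 comparisons (WT CM against media, KEAP1 KO CM against WT CM, CDDO-Me in control media, CDDO-Me in NRF2 KO CM, and KEAP1 KO CM/CDDO-Me against media/vehicle), for which blocked values are given where they change a call. Alternatives covered scaling, pseudocount, filter, trend, library weights, the block, the groups fitted and each library left out. Promoter windows came from RefSeq, gene positions from GENCODE. Protein sequences were not analysed here.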

Additional observations from a re-analysis of the deposited data

Results flagged for a closer look

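The CDDO-Me effect differed between media, by a test of the difference itself, in 7 cases among the members (limma, Benjamini-Hochberg adjustment over all tested genes). All 7 subtract the effect in the same control media libraries, so they are not separate results. Between WT CM and control media the difference was -2.02 on the log2 scale for Stab1 and -2.02 for Cd163, -1.23 for Cd36 and 1.05 for Mertk. Between KEAP1 KO CM and control media it was -1.72 for Stab1, -1.87 for Cd163 and 1.05 for Mertk. The CDDO-Me and vehicle libraries of Cd36 overlapped in WT CM and were separated in control media. Those of Stab1, Cd163 and Mertk were separated in the conditioned media named. These cases were picked by a test on the same libraries, so this separation adds no support. Its share over all genes was not computed. Groups of 3 are too small for a test of single outlying libraries.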

How the results depend on the processing

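The 33 member results that passed were recomputed in 589 alternatives. None reversed, 520 still passed and 69 did not, 55 of the latter when 1 library was left out. Stab1 and Cd163 in WT CM and KEAP1 KO CM with CDDO-Me, and Mertk and Axl there, passed in every alternative that tested them. What the depth of the libraries limits is unknown from TPM.

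Only the larger moves of the members called, of 8, are listed, in the order of settings. With library weights there were 4 for WT CM against media with vehicle, 3 for KEAP1 KO CM against media, 2 for KEAP1 KO CM against WT CM, 6 for WT CM against NRF2 KO CM, 4 for KEAP1 KO CM against NRF2 KO CM, 6 for CDDO-Me in control media, 4 in NRF2 KO CM, 6 for WT CM/CDDO-Me against media/vehicle and 5 for KEAP1 KO CM/CDDO-Me against it, and 7 for the KEAP1 KO CM effect against the control media effect. Genes called, of 13661 and in the same order, numbered 4126, 5024, 1081, 3401, 3755, 3590, 3033, 6836, 5800 and 5376. In the main fit they numbered 1003, 1087, 0, 1457, 1205, 821, 1335, 3656, 3551 and 2014. Without the 2 libraries of few genes the member counts were 3 for KEAP1 KO CM against media, 5 and 2 for WT CM and KEAP1 KO CM against NRF2 KO CM, 4 for CDDO-Me in control media, 7 for WT CM/CDDO-Me and 5 for KEAP1 KO CM/CDDO-Me against naïve cells, and 6 for the KEAP1 KO CM effect. Genes called in the same order numbered 2951, 2091, 1842, 2118, 6025, 5809 and 4040. With the compared groups alone the member counts were 3, 0 and 0, 5, 5 and 5, and 7 in the same order, and 1 for CDDO-Me in NRF2 KO CM. Genes called there numbered 2186, 162, 129, 1606, 5340, 4553 and 3450, and 142 for CDDO-Me in NRF2 KO CM. A mean TPM of at least 5, which drops Marco and Cd163, gave 1 member for CDDO-Me in control media, 3 in WT CM and 1 in NRF2 KO CM, and 1 for WT CM/CDDO-Me against media/vehicle. Genes called in the same order numbered 669, 3091, 1045 and 2945 of 10065. No filter gave 1 member for WT CM against media and 1 for CDDO-Me in control media, a pseudocount of 0.1 gave 2 each for KEAP1 KO CM and WT CM against NRF2 KO CM, and no scaling gave 5 for the KEAP1 KO CM effect. Genes called in the same order numbered 926 and 791 of 24791 with no filter, 1179 and 1442 with that pseudocount and 2309 without scaling. The causes of these shifts were not tested.

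With the replicate block, 4 members passed for WT CM against media, 2 for KEAP1 KO CM against media, 2 for WT CM against NRF2 KO CM and 5 for the KEAP1 KO CM effect, and the 33 results that passed without the block all passed with it. Genes called in these comparisons, in the same order, numbered 1734, 1770, 2568 and 2919. Smaller changes of the member count are not listed, such as that for CDDO-Me in control media given above. Over all 84 same-numbered pairs the lowest correlation was 0.0221, and 21 of 24 libraries correlated best with one of their own number. The library names also repeat the same numbers in every group, but what the numbers stand for is not stated.

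Leaving out 1 library gave 0 to 1 members for WT CM against media, 0 to 0 for KEAP1 KO CM against media, 1 to 3 and 0 to 1 for WT CM and KEAP1 KO CM against NRF2 KO CM, 1 to 2 for CDDO-Me in control media, 4 to 5 in KEAP1 KO CM and 1 to 2 in NRF2 KO CM, 2 to 3 each for KEAP1 KO CM/CDDO-Me and WT CM/CDDO-Me against media/vehicle, and 3 to 4 for the WT CM effect. Genes called in the same order ran 606 to 723, 666 to 873, 805 to 2431, 736 to 1956 and 516 to 605. From CDDO-Me in KEAP1 KO CM onwards they ran 3296 to 3583, 1049 to 1523, 2901 to 3181, 3005 to 3304 and 1672 to 1907. Signs turned only among results that had not passed. With 1 library left out the log2 differences that did so ran from -0.0032 to 0.18 for Msr1 in WT CM against media, -0.24 to 0.078 for Cd36 in KEAP1 KO CM against media, -0.14 to 0.17 for Mertk in NRF2 KO CM against media and -0.39 to 0.14 for Axl in KEAP1 KO CM against NRF2 KO CM. For CDDO-Me against vehicle in KEAP1 KO CM they ran from -0.036 to 0.26 for Cd36 and -0.054 to 0.12 for Scarb1, and in NRF2 KO CM from -0.40 to 0.30 for Msr1, -0.11 to 0.52 for Scarb1, -0.25 to 0.079 for Mertk and -0.16 to 0.35 for Axl. Library weights turned Mertk in NRF2 KO CM against media (-0.10) and Scarb1 with CDDO-Me in KEAP1 KO CM (-0.041) and NRF2 KO CM (-0.020), leaving out both libraries of few genes turned that Mertk difference as well (-0.14), no scaling turned Cd36 (-0.053) and Scarb1 (-0.14) with CDDO-Me in KEAP1 KO CM, and a pseudocount of 0.1 turned Marco in the WT CM effect against the control media effect (0.59).

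Over all genes, those called for WT CM against media numbered 1003, with 4126 under library weights, 2595 without the 2 libraries of few genes, 2044 in the compared groups alone, 1734 with the block and 606 to 723 with 1 library left out. For CDDO-Me in WT CM they numbered 3798, with 7140, 5926, 5029, 4633 and 3167 to 3386.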
